A study of Rattus norvegicus with 6 samples.

Results

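Mesothelial genes were followed in bulk RNA sequencing of 6 rat livers. They were taken by name as the 8 genes Msln, Upk3b, Upk1b, Muc16, Gpm6a, Wt1, Lrrn4 and Ezr, which stood as 8 of the 30957 rows of the deposited gene table. Of these, 7 passed the filter on low counts, as did 12210 rows in all, and Wt1 did not. The genes were selected on the counts of this same contrast, in that the list was drawn up with its fold-changes known, so their differences between the groups are given here as a description without a test.

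The study asked whether gut microbiota shaped by an androgen changes the metabolism of a recipient. Donor rats had been treated with dehydroepiandrosterone (DHEA), an adrenal androgen precursor that brings on a state like polycystic ovary syndrome in rodents, or with phosphate-buffered saline (PBS). The recipients were female Sprague Dawley rats kept in a specific pathogen-free facility, and all of them had first been given a cocktail of antibiotics in the drinking water to make them pseudo germ-free. They then received faecal microbiota by gavage from PBS-treated donors (t-PBS, 3 livers sequenced) or from DHEA-treated donors (t-DHEA, 3 livers sequenced). No recipient was injected with DHEA itself, and none was left without antibiotics or without a transplant, so both groups share these treatments. The faeces of the donors of a group were pooled, so the 3 recipients of a group are not 3 independent transplants, and the labels give no age.

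The livers are called t-PBS rats 1 to 3 and t-DHEA rats 1 to 3 after the replicate numbers of the labels. Total counts per liver ran from 12348511 to 14316886, and the hepatocyte gene albumin took 10.6% to 13.5% of them. At this depth a gene with 0 counts could still have stood at 0.21 to 0.243 CPM (counts scaled to a common library size), the level of 3 counts. When t-DHEA was compared with t-PBS by edgeR's quasi-likelihood test, no gene had a Benjamini-Hochberg adjusted p below 0.05. The lowest adjusted p was 0.242, and 634 of the 12210 genes had an unadjusted p below 0.05. A gene is called below where its unadjusted p was under 0.05 and its fold-change over 1.2, the thresholds of the study's methods.

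Mesothelium is the single layer of flat cells that lines the body cavities and wraps the organs in them, the liver included, where it lies on the connective tissue of the capsule. Its cells make a slippery surface with membrane mucins and other glycoproteins, carry many microvilli held up by ezrin, and express the transcription factor WT1 from the embryo onwards. In a sample of liver tissue they are a small share of the cells beside hepatocytes, and a whole-tissue measurement does not place their transcripts on the capsule. Fewer cells of a type and less RNA per cell cannot be told apart in bulk samples.

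The sequences before the start sites are shown because the genes shared an order over the t-DHEA livers while their promoters differ widely in base composition. RefSeq promoters of the rat build GRCr8 were found for 6 of the 8 genes, with Msln and Muc16 not among them. The 250 bases before the start of Upk3b, which had the fewest CG dinucleotides, of Gpm6a, whose counts departed from those of the other genes, and of Ezr, which had the most, read as follows from 5′ to 3′ on the strand of the gene, with every CG dinucleotide in capitals. They lie on the minus strand at chr12:26274241-26274490 for Upk3b, at chr16:43706462-43706711 for Gpm6a and at chr1:49416574-49416823 for Ezr.
Upk3b: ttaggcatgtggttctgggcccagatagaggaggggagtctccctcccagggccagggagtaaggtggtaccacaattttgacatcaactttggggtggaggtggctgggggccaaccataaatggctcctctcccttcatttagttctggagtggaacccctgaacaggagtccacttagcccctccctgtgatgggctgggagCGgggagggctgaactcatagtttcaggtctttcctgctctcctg
Gpm6a: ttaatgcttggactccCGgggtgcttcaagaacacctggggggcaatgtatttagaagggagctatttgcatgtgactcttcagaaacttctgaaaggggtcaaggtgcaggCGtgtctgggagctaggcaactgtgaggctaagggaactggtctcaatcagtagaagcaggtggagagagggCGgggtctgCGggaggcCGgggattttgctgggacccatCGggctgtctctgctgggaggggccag
Ezr: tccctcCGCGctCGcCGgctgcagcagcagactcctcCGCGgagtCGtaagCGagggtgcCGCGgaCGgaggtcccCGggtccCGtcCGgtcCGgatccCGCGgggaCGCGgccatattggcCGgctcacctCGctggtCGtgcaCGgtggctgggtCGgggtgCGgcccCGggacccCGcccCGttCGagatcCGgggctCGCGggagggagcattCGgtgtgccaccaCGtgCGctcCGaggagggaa

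The Ezr window held 36 CG dinucleotides and that of Wt1 held 27, a number reached by 7.69% of all 33469 promoters of the same length. Upk3b held 1, and 18.1% of all promoters held no more than that. Upk1b and Lrrn4 each held 4 and Gpm6a held 6, close to the median of 5 over all promoters. The G and C content was 74.4% in Ezr and 71.6% in Wt1, and between 53.2% in Lrrn4 and 56.8% in Gpm6a for the other four, against a median of 51.2%. The TATA box letters TATAAA, searched on both strands, were in none of the 6 windows and in 12.9% of all promoters. The GC box letters GGGCGG were in Gpm6a and Ezr and in 30.5% of all promoters. The letters GNGTGGGNG, of the type bound by WT1 and the EGR factors, were in none of the 6 and in 11.3% of all. A match or a missing match in these windows says only which letters are there.

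Mesothelin, the product of Msln, is a membrane-anchored glycoprotein of the mesothelial surface (ENSRNOG00000019445, chr10:15119663-15125408 in Rnor_6.0). Msln counts in rats 1, 2 and 3 were 192, 198 and 217 with t-PBS. They were 42, 15 and 98 with t-DHEA. Every t-DHEA liver was below every t-PBS liver, and t-DHEA rat 2 had the fewest. Its level was 14.8 ± 1.47 CPM (SD, n = 3) in t-PBS and 4.05 ± 3.26 CPM (SD, n = 3) in t-DHEA, and the fitted log2 fold change was -1.87 ± 0.46 (SE).

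Muc16 encodes the large membrane mucin known as CA125, which binds mesothelin (ENSRNOG00000039931, chr8:18437787-18508971). Muc16 counts were 34, 51 and 33 in t-PBS against 5, 2 and 11 in t-DHEA, in the same order of rats. The t-DHEA livers held 14.3%, 5.2% and 29.5% of the t-PBS mean in CPM, so again rat 2 was lowest and rat 3 highest. The log2 fold change of Muc16 was -2.59 ± 0.48 (SE), close to that of Upk3b.

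Upk3b and Upk1b encode uroplakins, membrane proteins best known from the urothelium that are also made by mesothelium. Upk3b (ENSRNOG00000023686, chr12:23676152-23682381) had 61, 62 and 31 counts in t-PBS against 7, 4 and 13 in t-DHEA. The groups of Upk3b did not overlap although t-PBS rat 3 lay well below the other t-PBS livers, and the log2 fold change was -2.56 ± 0.43 (SE). Upk1b (ENSRNOG00000027380, chr11:64522130-64553228) had 22, 16 and 30 counts in t-PBS against 2, 2 and 15 in t-DHEA. Both low Upk1b values were under the floor of 3 counts, and t-DHEA rat 3, at 1.16 CPM, was just under the lowest t-PBS liver, at 1.18 CPM. The log2 fold change of Upk1b was -1.73 ± 0.65 (SE).

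Lrrn4 encodes a leucine-rich repeat membrane protein whose transcript is enriched in mesothelium (ENSRNOG00000032989, chr3:125523781-125533600). Lrrn4 counts were nearly the same in the t-PBS livers, at 32, 34 and 33, and were 15, 0 and 20 in the t-DHEA livers. The 0 in t-DHEA rat 2 allows a level of up to 0.222 CPM, against 2.41 ± 0.148 CPM (SD, n = 3) in t-PBS. With a log2 fold change of -1.38 and a standard error of 0.68, Lrrn4 was not called.

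Gpm6a encodes a multi-pass membrane glycoprotein of the proteolipid family, known from neurons and also present in liver mesothelium (ENSRNOG00000010731, chr16:39367691-39476202). It was the gene that departed from the others. Gpm6a counts were 148, 139 and 143 in t-PBS against 154, 2 and 206 in t-DHEA. In CPM, t-DHEA rats 1 and 3 stood at 121% and 152% of the t-PBS mean, above every t-PBS liver, while t-DHEA rat 2 stood at 1.43% of it. The log2 fold change of Gpm6a was -0.13 ± 0.76 (SE), which averages a far lower liver with 2 higher ones.

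Wt1, the zinc-finger transcription factor of the mesothelial lineage (ENSRNOG00000013074, chr3:95133713-95180564), was near the limit of detection. Wt1 counts were 10, 7 and 6 in t-PBS against 3, 0 and 5 in t-DHEA. The groups did not overlap in CPM, but at 0.557 ± 0.129 CPM (SD, n = 3) in t-PBS and 0.211 ± 0.196 CPM (SD, n = 3) in t-DHEA the difference is between a few reads. A fit without the filter gave Wt1 a log2 fold change of -1.37 ± 0.79 (SE).

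Ezr encodes ezrin, which ties the membrane of microvilli to actin and is made by bile duct and other epithelia as well as by mesothelium (ENSRNOG00000018524, chr1:47287874-47331412). Ezr counts were 205, 160 and 172 in t-PBS against 86, 68 and 100 in t-DHEA. It differed less than Msln, Muc16 and the uroplakins and varied less between the t-DHEA livers, from 39.0% to 59.2% of the t-PBS mean. The log2 fold change of Ezr was -0.98 ± 0.18 (SE).

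**Figure D1:**
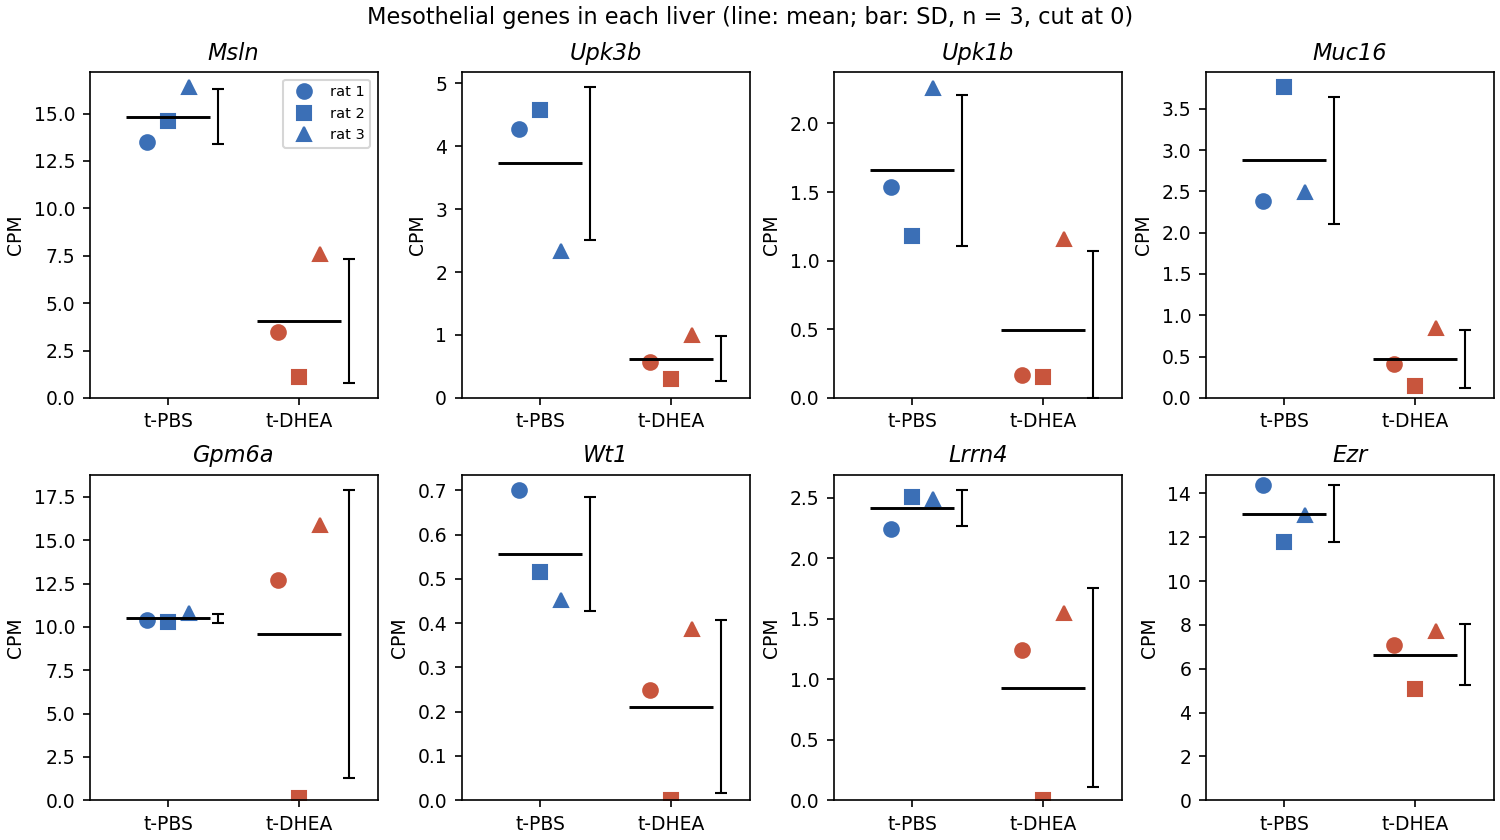
CPM of each of the 8 mesothelial genes (vertical axes, from 0) in each liver, with the group mean as a line and the SD over 3 livers as a bar. All genes but Gpm6a have every t-DHEA liver below every t-PBS liver, and in each panel t-DHEA rat 2 is lowest and t-DHEA rat 3 highest of its group.

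The fold-changes met the thresholds for a call in 5 of the 7 genes tested, all of them lower in t-DHEA (Msln, Upk3b, Upk1b, Muc16 and Ezr). Over all genes tested, 4.95% were called, with 2.98% called lower and 1.97% called higher. Nothing is read from that comparison because the genes were picked with this contrast known. The t-DHEA livers lay below all t-PBS livers in 6 of the 7, as in 5.42% of all genes tested. At fold-changes above 1.5 and 2, 5 and 4 of the 7 met the thresholds, as did 2.25% and 0.819% of all genes tested. The lower calls alone were 1.43% and 0.557% of all genes tested. The median log2 fold change of the 7 was -1.73, beside 0.001 over all genes tested.

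Summed over the 8 genes, the level in the t-PBS livers was 49.3, 49.2 and 50.2 CPM. In the t-DHEA livers it was 25.9, 6.96 and 36.2 CPM. The t-PBS livers were thus within about 1 CPM of each other, while the t-DHEA livers were spread over a wide range below them. All 8 genes shared the order of rat 3 over rat 1 over rat 2 within t-DHEA, an order found in 15.4% of all genes tested. For Upk1b that order rests on equal counts of 2 in rats 1 and 2.

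The spread between livers differed with the group. Genes of a like level were matched on mean log2 CPM over all livers. They were not matched to the lower t-DHEA level of a gene, where counting noise is larger. The SD of log2 CPM of Msln was 0.14 in t-PBS and 1.31 in t-DHEA, where genes of a like level had medians of 0.19 and 0.20. Lrrn4 had an SD of 0.08 in t-PBS and 1.94 in t-DHEA, where genes of a like level had medians of 0.37 and 0.38. Gpm6a had an SD of 0.04 in t-PBS and 3.23 in t-DHEA, beside medians of 0.19 and 0.21. Both t-DHEA values rest on rat 2, which had 0 counts of Lrrn4 and 2 of Gpm6a. At such counts the prior count of 2, added before the log was taken, largely sets log2 CPM. Ezr and Upk3b showed the smallest change of spread, from 0.14 to 0.31 for Ezr and from 0.51 to 0.68 for Upk3b.

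Levels of different genes were compared in FPKM, fragments scaled to transcript length and library size. By median FPKM in t-PBS, Msln was highest at 6.96, followed by Ezr at 4.17, and then by Upk3b and Gpm6a, both at 3.58. Lrrn4 at 0.971, Upk1b at 0.83, Muc16 at 0.494 and Wt1 at 0.205 followed. The range of Upk3b (1.97 to 4.0 FPKM) overlapped those of Ezr (3.94 to 4.59 FPKM) and Gpm6a (3.47 to 3.63 FPKM), and Upk1b overlapped both Lrrn4 and Muc16, so these neighbours are not ordered beyond their spread. By median FPKM in t-DHEA the order was Gpm6a at 4.19, Ezr at 2.23, Msln at 1.56, Upk3b at 0.477 and Lrrn4 at 0.473, with Wt1, Upk1b and Muc16 between 0.0927 and 0.0802. The t-DHEA ranges overlapped widely, as that of Gpm6a ran from 0.0496 to 5.29 FPKM.

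The make-up of the group of genes also differed between the t-DHEA livers. Of the summed FPKM of the 8 genes, Gpm6a made up 17.2%, 16.9% and 18% with t-PBS. With t-DHEA it made up 45.6%, 1.96% and 39.1% in rats 1, 2 and 3. The ratio of Gpm6a to Msln in FPKM was 0.565, 0.514 and 0.483 in the t-PBS livers. In the t-DHEA livers it was 2.69, 0.0977 and 1.54, so it was above t-PBS in rats 1 and 3 and below it in rat 2. Ezr made up 63.8% of the summed FPKM in t-DHEA rat 2, where the other 7 genes stood at 9.0% of their t-PBS mean or less, and 18.1% to 24.3% in the other 5 livers. Without Gpm6a the summed FPKM was 16.8, 17.6 and 16.5 in t-PBS against 5.0, 2.48 and 8.25 in t-DHEA.

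Because t-DHEA rat 2 stood apart, each liver was left out in turn. For all 7 genes tested the log2 fold change was lowest without t-DHEA rat 3 and highest without t-DHEA rat 2. It ran from -2.70 to -1.41 for Msln, from -3.07 to -2.21 for Upk3b and from -3.33 to -2.16 for Muc16. Together with Ezr, at -1.10 to -0.81, these genes were called in all 6 of the fits with a liver left out. Upk1b, at -3.32 to -1.29, was called in 3 of the 6, and its call was lost without t-PBS rat 3 (-1.45), t-DHEA rat 1 (-1.34) or t-DHEA rat 2 (-1.29). Lrrn4, at -1.99 to -0.78, gained a call without t-DHEA rat 2 (-0.78) or t-DHEA rat 3 (-1.99). Gpm6a was at -0.72 when t-DHEA rat 3 was left out and at 0.45 when rat 2 was, where it was called higher, and so had no direction that held over the livers.

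**Figure D2:**
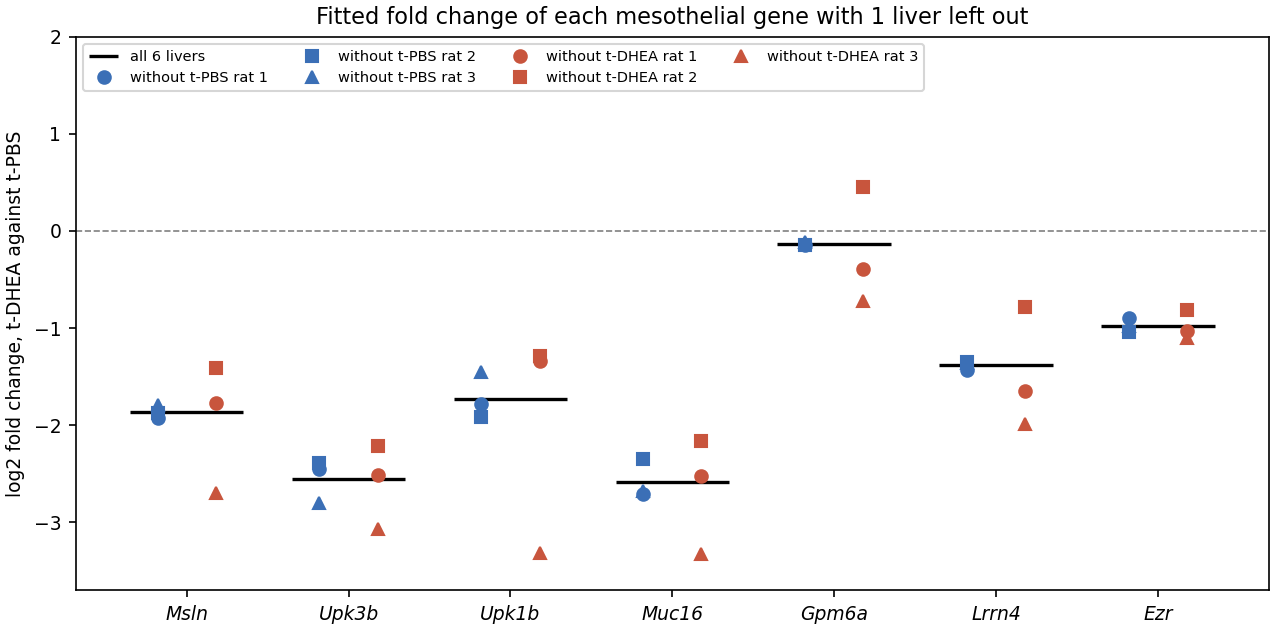
Fitted log2 fold change of t-DHEA against t-PBS (vertical axis) for the 7 mesothelial genes tested, with all 6 livers (black line) and with each liver left out (symbols). Leaving out t-DHEA rat 2 moved every gene up and leaving out t-DHEA rat 3 moved every gene down, and only Gpm6a crossed 0.

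A list of 15 other genes known for mesothelium, none of them among the 8, was read from the same fit. This list and the lists below were also chosen with earlier results of these data known. Their shares are therefore set beside those of all genes as a description, and nothing is read from them. Of the 11 that passed the filter, 5 were called lower and none higher, beside the 2.98% called lower over all genes tested. Their median log2 fold change was -0.75, and 9 of the 11 were below 0, as were 49.6% of all genes tested. No gene of this list passed after adjustment over all genes, with adjusted p-values of 0.805 to 0.900 for the called ones.

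Efemp1, which encodes the matrix protein fibulin-3, had 51, 59 and 41 counts in t-PBS against 15, 5 and 26 in t-DHEA. It had a log2 fold change of -1.60 ± 0.45 (SE) (edgeR's quasi-likelihood test, adjusted p = 0.805). Cldn15, a claudin of tight junctions, had 19, 33 and 23 counts against 7, 5 and 12, with a log2 fold change of -1.54 ± 0.41 (SE). Pdpn, the mucin-like podoplanin that binds ezrin, had 16, 28 and 18 counts against 5, 5 and 11, with a log2 fold change of -1.45 ± 0.43 (SE). These 3 genes had t-DHEA rat 3 highest and rat 2 lowest within their group in CPM, as the 8 genes did.

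Igfbp6, an insulin-like growth factor binding protein, was lowest in t-DHEA rat 2 as well, with 53, 66 and 61 counts in the t-PBS livers against 34, 6 and 25. The log2 fold change of Igfbp6 was -1.36 ± 0.46 (SE). Bcam, a laminin-binding adhesion protein, changed least of the called genes, at -0.59 ± 0.20 (SE), and its groups overlapped in CPM. Efemp1, Cldn15, Pdpn and Igfbp6 were called with any liver left out, and the call of Bcam was lost without t-PBS rat 3 (-0.51), t-DHEA rat 2 (-0.44) or t-DHEA rat 3 (-0.53).

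Other genes of the list did not meet the thresholds. Cd200 was at -0.84 and Rspo1 at -0.75 on the log2 scale, and neither overlapped between the groups. Aldh1a2, the retinoic acid synthesising enzyme, was at -0.56 with overlapping groups. Alcam at 0.23, Slpi at 0.03 and Dpp4 at -0.07 were not called, and Alcam and Dpp4 are also made by other liver cells. Which cells made the transcripts of the called genes of this list was not tested. Among the genes below the filter, Nkain4 had 8, 12 and 7 counts in t-PBS against 1, 0 and 6 in t-DHEA, and Bnc1 had 6, 5 and 0 against 1, 0 and 3. Calb2, which encodes the mesothelial marker calretinin, had 0 counts in all 6 livers, so not every defining marker of the cell type was found.

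**Figure D3:**
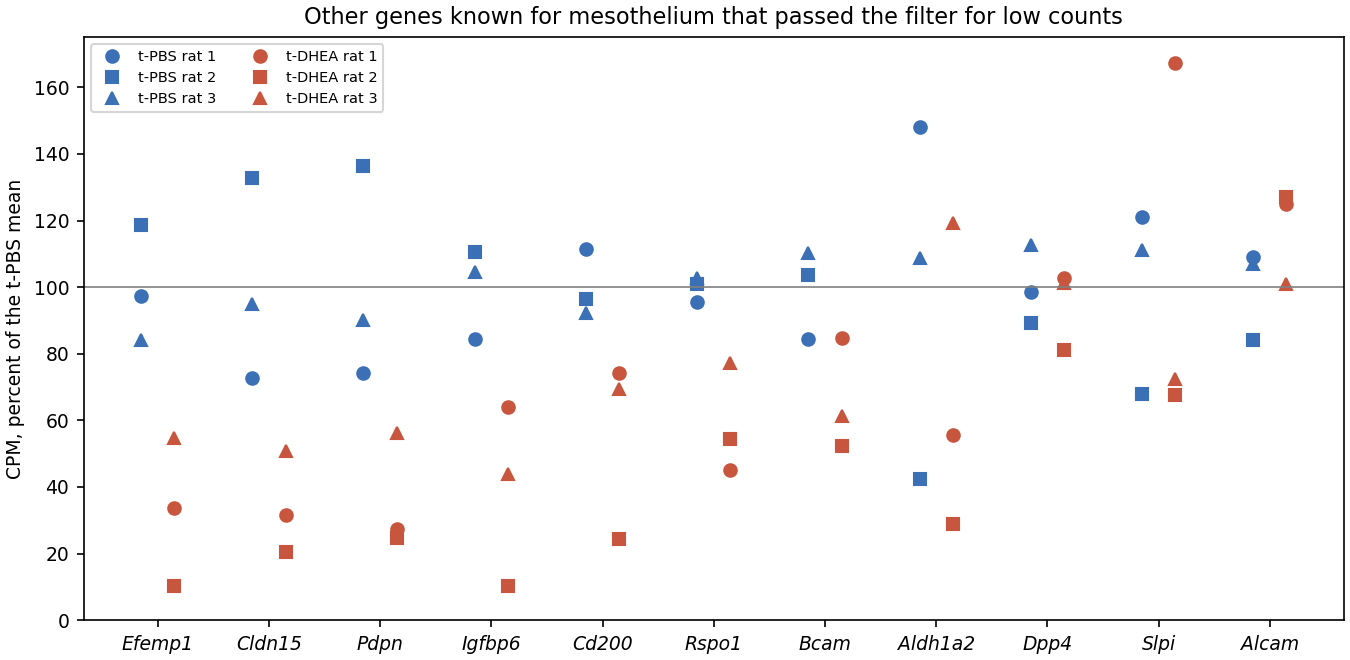
CPM of 11 other genes known for mesothelium in each liver, in percent of the t-PBS mean of the gene (vertical axis). For the 6 genes on the left every t-DHEA liver is below every t-PBS liver, as in 5.42% of all genes tested. The groups of Bcam, Aldh1a2, Dpp4, Slpi and Alcam overlap.

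Keratins of simple epithelia, which mesothelium shares with bile ducts, divided into 2 kinds. Krt7 had 23, 33 and 45 counts in t-PBS against 3, 0 and 18 in t-DHEA, with a log2 fold change of -2.16 and a standard error of 0.77 (edgeR, adjusted p = 0.930). Krt19 had 62, 110 and 65 counts against 32, 19 and 38, with a log2 fold change of -1.31 and a standard error of 0.33 (edgeR, adjusted p = 0.796). Both were called lower, of 4 keratins tested, beside 2.98% called lower over all genes tested. Both had rat 3 highest and rat 2 lowest in t-DHEA. The call of Krt7 was lost when t-PBS rat 3 (-1.87) or when t-DHEA rat 1 (-1.83) was left out, and also with DESeq2 (-2.18). Krt19 was called whichever liver was left out. Krt8 at -0.07 and Krt18 at 0.04, which hepatocytes make too, were not called.

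The bile duct list is relevant to Ezr, Krt7 and Krt19. None of its 5 genes tested was called in edgeR, none had an unadjusted p under 0.05, and their median log2 fold change was -0.24. Epcam, which marks bile duct cells and is not a gene of mesothelium, had 148, 143 and 113 counts in t-PBS against 92, 87 and 137 in t-DHEA, with a log2 fold change of -0.25. The summed level of the list was 36.0 to 40.7 CPM in t-PBS and 31.0 to 35.5 CPM in t-DHEA, and its part in the difference of Ezr and the keratins was not tested.

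Of the fibroblast genes of the capsule and portal tracts, 3 of the 9 tested were called lower, beside 2.98% over all genes tested. The median of the 9 was -0.28 and all 9 were below 0, as were 49.6% of all genes tested, but several lay close to it, such as Dcn at -0.01 and Dpt at -0.05. The called genes were Lum (lumican) at -1.08, Col1a1 at -0.88 and Col3a1 at -0.40, the last 2 being chains of fibrillar collagens. All 3 calls were lost without t-PBS rat 2, those of Lum also without t-DHEA rat 3 and of Col3a1 also without t-DHEA rat 2, and the values without t-PBS rat 2 were -0.72 for Lum, -0.58 for Col1a1 and -0.29 for Col3a1. The summed level was 839 to 970 CPM in t-PBS and 702 to 841 CPM in t-DHEA. The part of capsule fibroblasts in the mesothelial difference was not tested. The stellate cell list had 0 of 10 genes called in edgeR, none of them with an unadjusted p under 0.05, and a median of -0.12.

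Lists for tissues that touch the liver held genes with counts and genes without. Of the skeletal muscle genes none passed the filter, and their sum was at most 1.89 CPM in any liver. The adipocyte genes Adipoq, Plin1, Lep and Retn and the pancreatic genes Prss1, Ctrb1 and Pnlip had 0 counts in all 6 livers. Other adipocyte genes were detected but not called, among them Cidec with 654 to 794 counts over the 6 livers (0.18 on the log2 scale), Cfd (0.04) and Fabp4 (-0.73). The digestive enzyme gene Cpa1 had 517, 267 and 502 counts in t-PBS against 851, 259 and 637 in t-DHEA. Its log2 fold change of 0.56 was not called, but without t-DHEA rat 2 Cpa1 was called higher at 0.94. Cel, below the filter, had 1, 3 and 0 counts in t-PBS against 6, 5 and 10 in t-DHEA, groups that did not overlap, and was called higher in a fit without the filter. The summed pancreatic level was 24.6 to 43.1 CPM in t-PBS and 22.3 to 72.9 CPM in t-DHEA, lowest in t-DHEA rat 2, and its part in the mesothelial difference was not tested. The 2 other pancreatic genes and the 2 gut epithelial genes that passed the filter were not called. The smooth muscle list held 1 gene called, Tagln, which was higher in t-DHEA at 1.06 on the log2 scale and which overlaps Sidt2 in the genome. Cnn1 of that list, below the filter, had 4, 3 and 1 counts in t-PBS against 13, 20 and 2 in t-DHEA. The groups of Cnn1 overlapped, and it was called higher in the fit without the filter. Of the 10 hepatocyte genes, Tat was called higher at 0.68, and the median was 0.04.

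**Figure D4:**
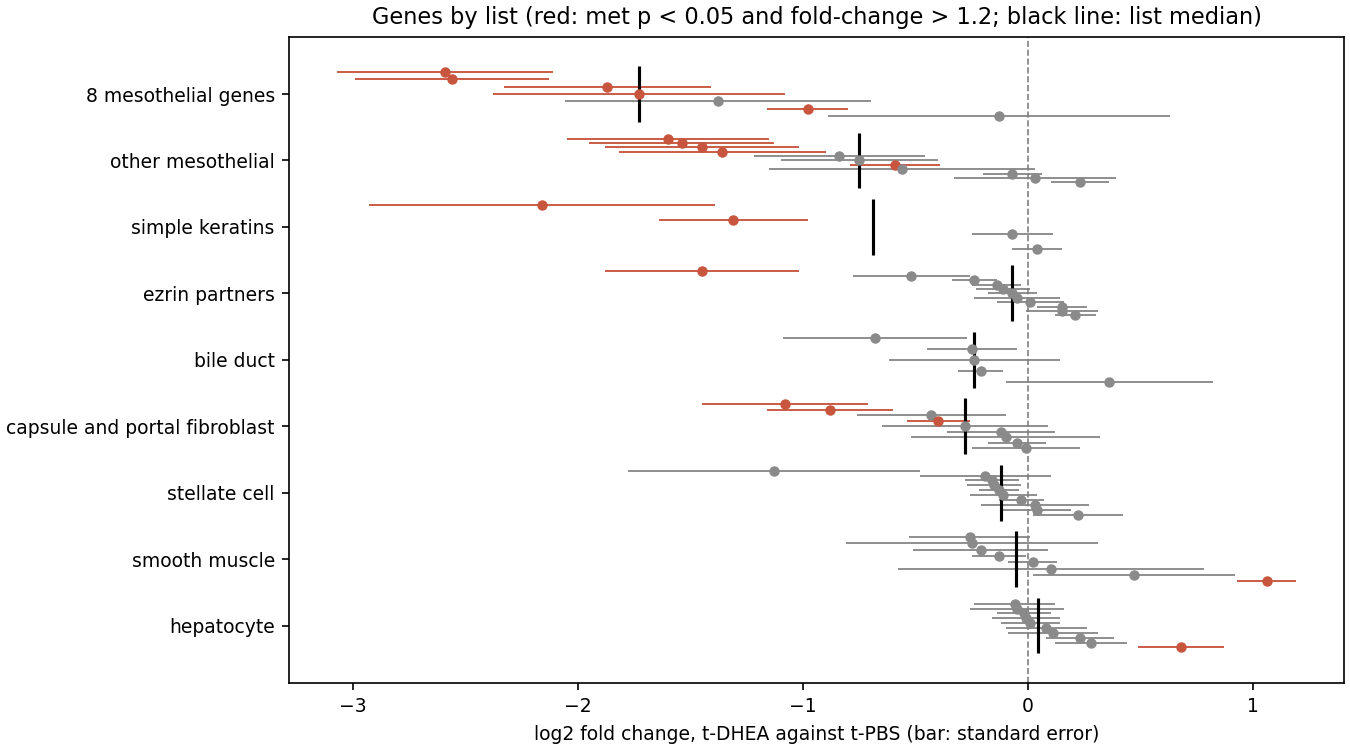
Log2 fold change of t-DHEA against t-PBS (horizontal axis) with its standard error for every tested gene of 9 lists, red where called and with the list median as a black line. The 7 tested of the 8 mesothelial genes have a median of -1.73 and the other mesothelial genes one of -0.75. The median is -0.69 for the simple keratins and -0.28 for the capsule and portal fibroblasts. The medians of the ezrin partner, bile duct, stellate cell, smooth muscle and hepatocyte lists lie between -0.24 and 0.04.

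Relatives of the 8 genes were mostly absent or not called. Of the other uroplakins, Upk2, Upk3a and Upk3bl had 0 counts in all livers and Upk1a had at most 4. Among membrane mucins, only Muc1 passed the filter, with 14, 10 and 16 counts in t-PBS against 6, 13 and 9 in t-DHEA and a log2 fold change of -0.42. Radixin and moesin, the close relatives of ezrin, were at -0.11 (Rdx) and -0.14 (Msn) against -0.98 for Ezr. Of 11 genes of ezrin's relatives and partners Pdpn alone was called, beside 4.95% called over all genes tested. Pdpn is the same gene already counted on the list of other mesothelial genes. Gpm6b, the nearest relative of Gpm6a, had 22, 23 and 1 counts in t-PBS against 10, 22 and 25 in t-DHEA, so it did not share the low value of Gpm6a in t-DHEA rat 2. Lrrn3 at -0.43 and Lrrn1 at -0.20 were not called.

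Genes next to the 8 on the chromosomes were level. The nearest tested gene on either side of each gave 16 neighbours, none of them called, with log2 fold changes from -0.52 for B4galt4 to 0.25 for Rsph3. Crls1, which lies 1340 bases from Lrrn4, was at -0.04. Dtx2, which lies 5585 bases from Upk3b, was at -0.25. Gpm6a overlaps a U6 RNA gene that had 0 counts in every liver.

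The pattern of the 7 tested genes over the livers was summarised as the mean of their centred log2 CPM, which was 0.91, 0.96 and 0.92 in t-PBS against -0.60, -2.36 and 0.16 in t-DHEA. Msln followed the mean of the other 6 most closely, with a Pearson r of 0.990 over the 6 livers, and Lrrn4 came next at 0.952. Gpm6a followed it least, at 0.748 with a Spearman rho of -0.029, although within the groups its r was 0.925. These coefficients describe 6 livers in which t-DHEA rat 2 lies far from the rest.

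Among 10920 other genes with a symbol and at least 1 CPM on average, the 8 most like this mean over the 6 livers were Efemp1, Sorcs2, Cmtm3, Gzma, Aimp2, Anxa7, Pcyox1 and Pstpip1, with r from 0.991 to 0.976. Efemp1 led them and is also on the list of other mesothelial genes. Sorcs2, which encodes a sorting receptor, had 22, 22 and 20 counts in t-PBS against 10, 6 and 13 in t-DHEA. Gzma, the granzyme A of cytotoxic lymphocytes, had 38, 42 and 37 counts against 18, 12 and 25. The rank order of the 6 livers was matched exactly by 25 of the 10920 genes, so likeness over so few livers does not single a gene out. After the group means were removed, the 8 most alike were Ankh, Hspb11, Sorcs2, Zc3h12a, Itih2, Nckap1, Nudt1 and Map9, with r from 0.998 to 0.988, and of both sets Sorcs2 alone was shared.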

How the data were processed

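Total RNA from snap-frozen liver was made into paired-end libraries and sequenced. Per the labels and the study's methods, the authors filtered reads with Seqtk, mapped them to Rnor_6.0 with HISAT2 2.0.4 and quantified genes with StringTie 1.3.0. The annotation release and strand setting are not given in the sources used here, so reads of overlapping genes could be misassigned. The deposited table holds counts and FPKM per gene and liver. The authors' FPKM equal count over length and total count to within a relative difference of 0.000969.

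Counts were tested with edgeR 4.0.16 (R 4.3.3): TMM, filterByExpr and the quasi-likelihood test over all genes, with Benjamini-Hochberg adjustment, on 3 t-PBS and 3 t-DHEA livers. CPM are scaled to the TMM-adjusted total, and log2 CPM used a prior count of 2. FPKM served for comparing genes with each other. Tests were checked on simulated counts with 200 genes changed. The 8 genes and all lists were chosen with earlier results of these data known. Of 137 listed genes 134 matched by name. All 8 genes were named, with every called gene of each other list or the one of lowest p, and the 8 genes most alike over all livers and within groups; others were named where a count turned on them. The alternatives tried were fold-changes above 1.5 and 2, upper-quartile factors, no filter or a minimum of 10 counts per liver, a replicate block, leaving out each liver, the likelihood-ratio test of edgeR, DESeq2 1.42.0, and limma 3.58.1 on log2(FPKM + 0.1). Counts of every pair of livers differed beyond sampling noise (lowest chi-square per degree of freedom 12.8). Floors cover counting error only. SDs are between the 3 livers of a group. p-values set the difference between the groups against the spread between livers within them. Each SE was worked back from the quasi-likelihood test, as the absolute log2 fold change over the square root of its F statistic. It therefore takes in that spread too.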

Additional observations from a re-analysis of the deposited data

How the results depend on the processing

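The directions of Msln, Upk3b, Upk1b, Muc16, Lrrn4 and Ezr held under every alternative in which the gene was tested. The genes called, 604 in all, 364 lower and 240 higher, became 275, 174 and 101 at fold-changes above 1.5 and 100, 68 and 32 above 2, and DESeq2 called 240 lower. With at least 10 counts required in every liver, 542 genes in all were called. Of the 8 mesothelial genes that filter kept only Msln and Ezr, and both were called. It removes the genes that fell to a few reads. Of the other mesothelial genes 1 was called there. Adjusted p-values below 0.05 were reached by 0 genes in edgeR's quasi-likelihood test, where 634 had an unadjusted p below 0.05, and by 24 with DESeq2, 28 with the likelihood-ratio test and 0 to 1 with a liver left out. The median log2 fold change of the mesothelial genes, -1.73, was -2.70 when t-DHEA rat 3 and -1.29 when t-DHEA rat 2 was left out, and -1.80 without Gpm6a, a choice made after seeing the data. Replicate numbers did not pair the livers, since the correlations of same-numbered livers were -0.057, -0.059 and -0.055. The positive ones were 0.114 for t-PBS rat 1 with t-DHEA rat 2, 0.116 for 2 with 3 and 0.106 for 3 with 1. No fit used that other pairing. With replicate numbers as a block 539 genes and the same number of mesothelial genes, 5, were called. Of the genes most alike within groups, leaving out t-DHEA rat 2 turned Hspb11 to 0.20, Itih2 to 0.07, Nckap1 to 0.03 and Map9 to 0.11, where their lowest values, when rat 3 was left out, were -0.23, -0.11, -0.09 and -0.32. Nudt1, at 0.08, turned to -0.12 with limma, to -0.01 with the replicate block, and to -0.01 and -0.31 when t-DHEA rat 1 or 3 was left out (0.47 for rat 2). The cause was not tested. With 2 to 7 counts in t-DHEA rats 1 and 2, the fold-changes of Upk3b, Upk1b and Muc16 are limited by counting.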

Other observations

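The low Gpm6a, Lrrn4 and Igfbp6 values of t-DHEA rat 2 were looked at against all genes in that liver. Of 11401 genes with enough counts in the other 5 livers, 11 stood there at less than 25% of the level of every other liver, and these were Aox2, Cdh3, Esm1, Fbxo10, Gpm6a, Hdac9, Hmgb2, Igfbp6, Lrrn4, Prph and Prune2. The same count was 0 to 5 in the other livers, and none of the genes found in those was one of the 8 mesothelial genes.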
